A study of Mus musculus with 2 samples.

Results

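The genes described here are 10 genes of the red blood cell lineage, read in the accessible chromatin of embryonic mouse midbrain. They are the alpha-type globin genes Hba-x, Hba-a1 and Hba-a2, the beta-type globin genes Hbb-y, Hbb-bh1 and Hbb-bt, the transcription factor genes Klf1 and Nfe2, and the membrane skeleton genes Ank1 and Sptb. They were chosen by name and are 10 of 21668 protein-coding genes annotated on chromosomes 1 to 19 and X. DNase-seq, which maps where DNase I cuts open chromatin, was run on midbrain tissue of healthy B6NCrl mouse embryos of day 11.5, with males and females pooled, in 1 group of 2 biological replicates. Both replicates carry the same donor label and no second tissue or control belongs to the series, so all values are given per replicate and none is tested. For each gene, peaks within 500 bp of any of its transcription start sites (TSSs) were taken, together with all peaks and hotspots (wider regions of raised cutting) over the gene and 100 kb on both sides. The 3 alpha-type genes share 1 such span and the 3 beta-type genes share another, which gives 6 spans of 1.581 Mb in all.

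Haemoglobin is built from alpha-type and beta-type chains, and each type is encoded by a cluster in which embryonic genes precede adult ones. Each cluster is activated in red cell precursors by distant upstream enhancers, those of the alpha-type genes lying largely in introns of the neighbouring gene Nprl3 and those of the beta-type genes forming the locus control region upstream of Hbb-y. GATA1, KLF1 and NF-E2 bind these elements, and CTCF, a factor that anchors chromatin loops, binds sites that flank both clusters. Blood runs through the vessels of the midbrain, and at this stage the circulating red cells of the mouse are mostly still nucleated.

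None of the 6 globin genes, and not Klf1, had a peak within 500 bp of a TSS in either replicate. Nfe2, Ank1 and Sptb had one in both. Thus 3 of 10 members had a TSS peak in both replicates, against 65.5% of all protein-coding genes, and 7 of 10 had one in neither, against 28.1% of all protein-coding genes. In tissue of mixed cells, a small number of cells with an open site and a weakly open site in many cells cannot be told apart in these values.

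The sequences that carry the globin result are shown first. Those of the Hba-a2 and Hbb-y promoters are the 250 bases before the start of the gene in RefSeq (GRCm38.p6), and they stand for an adult and an embryonic globin gene without a peak. Capitals mark CCAAT and CATAAA, searched on both strands. 
Hba-a2 promoter, chr11:32296242-32296491, plus strand: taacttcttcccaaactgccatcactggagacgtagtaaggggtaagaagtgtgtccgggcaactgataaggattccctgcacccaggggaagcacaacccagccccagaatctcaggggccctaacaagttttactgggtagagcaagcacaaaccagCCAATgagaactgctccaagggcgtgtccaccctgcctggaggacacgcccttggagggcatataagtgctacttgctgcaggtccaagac
Hbb-y promoter, chr7:103853208-103853457, minus strand: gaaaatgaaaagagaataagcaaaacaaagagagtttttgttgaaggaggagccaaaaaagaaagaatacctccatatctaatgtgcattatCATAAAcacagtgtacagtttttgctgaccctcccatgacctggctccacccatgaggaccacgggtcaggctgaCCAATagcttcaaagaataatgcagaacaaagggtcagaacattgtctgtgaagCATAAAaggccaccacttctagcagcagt
The 3 sites that had overlapping peaks of both replicates in the whole beta-globin span follow, read from the GRCm38.p6 genome. Capitals mark AGATAA (a form of the GATA factor motif) and the core of the CTCF motif, on either strand. Other forms of the GATA motif were not searched in any sequence here.
Site downstream of Hbb-bt, chr7:103806916-103807165, plus strand: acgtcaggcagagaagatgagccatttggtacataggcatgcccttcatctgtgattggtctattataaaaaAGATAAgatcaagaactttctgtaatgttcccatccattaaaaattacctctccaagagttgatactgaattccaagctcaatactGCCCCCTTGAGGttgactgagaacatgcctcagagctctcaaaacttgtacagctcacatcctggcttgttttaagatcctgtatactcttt
Nearer site upstream of Hbb-y, chr7:103913096-103913285, plus strand: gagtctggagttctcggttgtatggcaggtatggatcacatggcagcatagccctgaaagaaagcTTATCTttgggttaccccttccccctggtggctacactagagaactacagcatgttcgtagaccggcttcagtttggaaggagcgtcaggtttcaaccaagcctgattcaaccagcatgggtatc
Farther site upstream of Hbb-y, chr7:103942736-103943025, plus strand: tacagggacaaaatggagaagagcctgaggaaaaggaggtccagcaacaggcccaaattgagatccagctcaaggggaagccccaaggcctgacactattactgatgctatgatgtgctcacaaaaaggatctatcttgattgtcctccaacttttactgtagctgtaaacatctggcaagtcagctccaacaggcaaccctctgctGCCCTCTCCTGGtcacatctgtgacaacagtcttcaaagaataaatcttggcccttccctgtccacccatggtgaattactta
The 3 sites with overlapping peaks of both replicates inside Nprl3 come next, the promoters of Nprl3 and Mpg aside. Each has its midpoint in an intron, and the farthest from Hba-x also overlaps coding sequence of 2 exons. They hold no exact match to AGATAA, the CTCF core, the NF-E2 core (TGAGTCA) or the CACCC-type motif (CCNCNCCC), so no letter is in capitals. Near matches, also to the CTCF core, were not searched.
Farthest Nprl3 site, chr11:32237156-32237305, plus strand: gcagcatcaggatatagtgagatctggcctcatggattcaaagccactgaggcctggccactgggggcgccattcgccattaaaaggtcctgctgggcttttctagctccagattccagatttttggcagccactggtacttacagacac
Middle Nprl3 intron site, chr11:32238556-32238705, plus strand: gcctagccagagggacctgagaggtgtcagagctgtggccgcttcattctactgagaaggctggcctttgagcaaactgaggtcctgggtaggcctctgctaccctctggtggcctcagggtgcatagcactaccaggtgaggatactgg
Nearest Nprl3 intron site, chr11:32247156-32247345, plus strand: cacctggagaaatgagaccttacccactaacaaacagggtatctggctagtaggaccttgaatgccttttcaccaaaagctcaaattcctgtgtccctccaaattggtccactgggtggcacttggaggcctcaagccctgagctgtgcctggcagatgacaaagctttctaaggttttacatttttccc

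Among the alpha-type genes, Hba-x encodes the embryonic zeta chain, and Hba-a1 and Hba-a2 encode the near-identical adult alpha chains. Hba-x lies at chr11:32276400-32278116 on the plus strand of mm10, and its nearest peak was 8.11 kb upstream in replicate 1, with a signal of 24, and 8.25 kb upstream in replicate 2, with a signal of 21. The signal is the authors' own value per peak, a whole number without a stated normalization, and it is used here only to rank and describe peaks. Hba-a1 lies at chr11:32283511-32284465, and its nearest peak was 3.32 kb downstream in both replicates, with signals of 27 and 25. Hba-a2 lies at chr11:32296489-32297298, and its nearest peak was 3.50 kb downstream in both replicates, with signals of 18 and 13. No peak of either replicate overlapped the body of these genes by its midpoint, and the peaks nearest to the adult genes belonged to the theta-globin genes that follow each of them.

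Those theta-globin genes, Hbq1b and Hbq1a, were the only globin genes of the alpha cluster with a TSS peak. The highest TSS signal of Hbq1b was 46 in replicate 1 and 29 in replicate 2, and that of Hbq1a was 42 and 34. Both genes had 3 peaks at the start in each replicate, with midpoints between 134 bp before and 86 bp after the TSS. The region of overlapping peaks at each start held 1 match to the CTCF core in its central 150 bp. Among all genes with a TSS peak these signals ranked low, at percentiles 11.3 and 10.6 for Hbq1b and 9.78 and 13.0 for Hbq1a.

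Hba-a1 and Hba-a2 are recent duplicates, and how reads that match several places were treated is not given in the sources used here. Of the 32-base words within 500 bp of the annotated 5′ end, 12% for Hba-a1 and 6.80% for Hba-a2 occur once in the genome, against 100% for Hba-x. Within the same windows, 178 of 1001 bases for Hba-a1 and 97 of 1001 bases for Hba-a2 lie in at least 1 unique word. Across all protein-coding genes, 9.51% of the 1388 genes with at most 50% unique words had a TSS peak in both replicates, against 73.3% of the 17929 genes with over 90% unique words. What part this has in the lack of a peak at Hba-a1 and Hba-a2 was not tested. Hbb-y and Hbb-bh1 had 100% unique words, Hbb-bt had 69.8% and Klf1 98.2%.

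**Figure D1:**
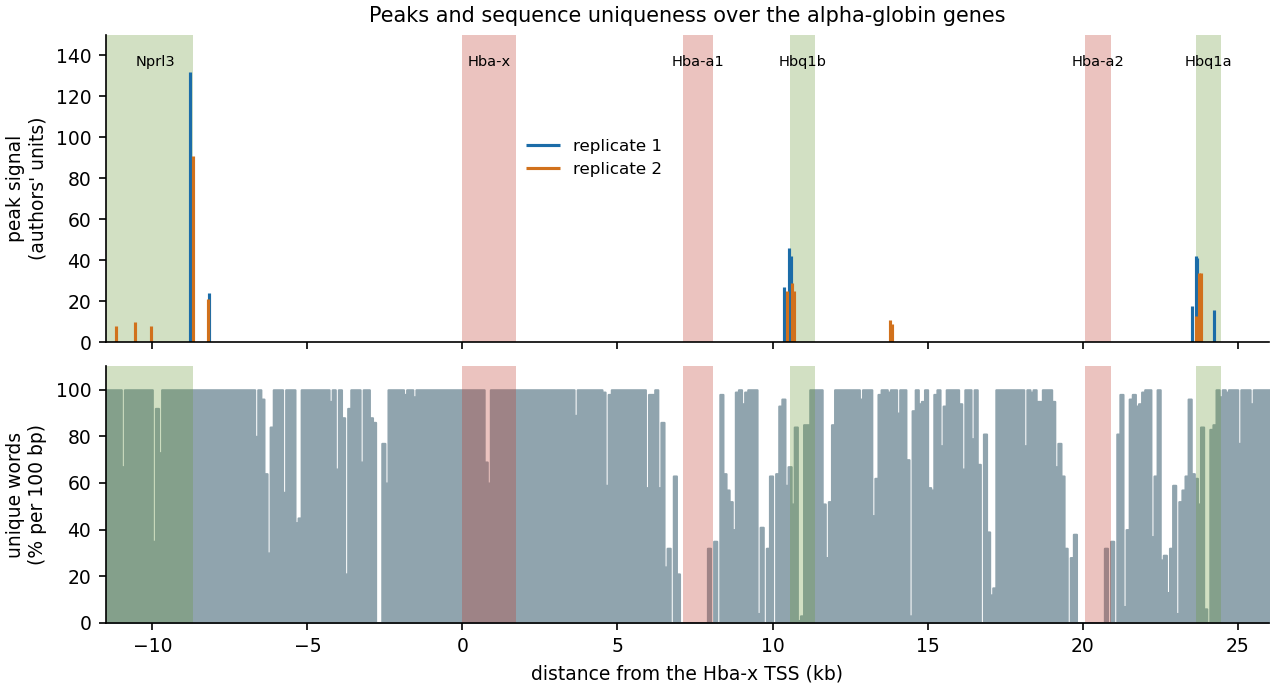
Peaks and sequence uniqueness over the alpha-globin genes, by distance in kb from the Hba-x TSS. The upper panel shows the authors' signal of each peak in replicate 1 (blue) and replicate 2 (orange), and the lower panel the share of 32-base words starting in each 100 bp that occur once in the genome. Red bands are Hba-x, Hba-a1 and Hba-a2, and green bands are Nprl3, Hbq1b and Hbq1a. Peaks stand at the Nprl3 and theta-globin starts and none within the red bands, and uniqueness is near 0 across Hba-a1 and Hba-a2 but not across Hba-x.

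The hotspots at the theta-globin starts were set beside the same measure of uniqueness. In both genes and in both replicates the hotspot over the start was broken by a gap of 34 bp and a gap of 9 bp, at the same distance from the TSS to within 1 bp. None of the bases in these gaps lay in a word that occurs once in the genome (0 of them in all 8 gaps). In the hotspot blocks between and beside the gaps, from 92.2% to 98.1% of bases lay in such a word. The middle block had the same 115 bp in both genes and both replicates, and every block had a −log10 q-value at the ceiling of 100.

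Among the beta-type genes, Hbb-y and Hbb-bh1 encode the embryonic epsilon-y and beta-h1 chains and Hbb-bt an adult beta chain. Hbb-y lies at chr7:103851749-103853216 on the minus strand, and its nearest peak was 3.63 kb upstream with a signal of 9 in replicate 1 and 14.4 kb upstream with a signal of 7 in replicate 2. Hbb-bh1 lies at chr7:103841637-103843164, and its nearest peak was 13.3 kb downstream with a signal of 11 in replicate 1 and 24.5 kb upstream with a signal of 7 in replicate 2. Hbb-bt lies at chr7:103812524-103813996, and its nearest peaks were 6905 bp downstream with a signal of 45 in replicate 1 and 7005 bp downstream with a signal of 13 in replicate 2. Only for Hbb-bt were these nearest peaks of both replicates at the same place.

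The remaining beta-type genes, Hbb-bs (adult) and Hbb-bh2, had no TSS peak in either replicate. From 1 kb before the first to 1 kb past the last of these genes, replicate 1 had 2 peaks, with signals of 18 and 11, and replicate 2 had none. The stronger lay in an exon of Hbb-bs, 1317 bp downstream of its TSS. The alpha cluster, delimited in the same way, had 7 peaks in replicate 1 and 8 in replicate 2, of which 6 in each replicate were at the starts of Hbq1b and Hbq1a.

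**Figure D2:**
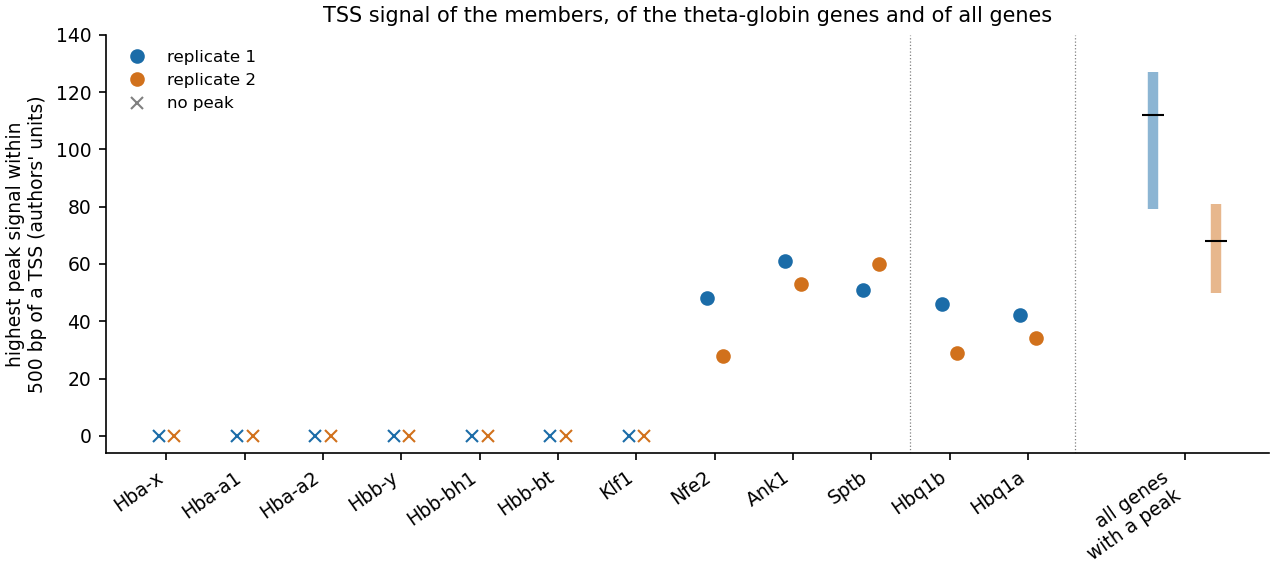
Highest peak signal within 500 bp of a TSS, in the authors' units, for the 10 members, for the theta-globin genes Hbq1b and Hbq1a, and for all protein-coding genes with a TSS peak (bars, 25th to 75th percentile; black line, median). Blue and orange are replicates 1 and 2, and crosses at 0 are genes without a peak. The 3 members with a peak lie between 28 and 61, under the median of 112 in replicate 1 and of 68 in replicate 2.

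Over the whole span of 240.7 kb, the beta-globin locus had 40 peaks in replicate 1 and 13 in replicate 2, and 3 sites at which peaks of both replicates overlapped by at least 1 bp (shared sites). This was 12.5 shared sites per Mb, against a median of 52.8 per Mb (quartiles 26.7 and 86.1) over the equally extended spans of all protein-coding genes, and it stood at percentile 14.2 of them. All 3 sites were intergenic and are the sequences printed above. The site 6.96 kb downstream of the Hbb-bt TSS had signals of 45 and 13 and held 1 match to AGATAA and 1 to the CTCF core. The site 59975 bp upstream of the Hbb-y TSS had signals of 28 and 7. It held an AGATAA match and no exact match to the CTCF core, and near matches were not searched. The site 89.7 kb upstream had signals of 54 and 28, held a match to the CTCF core and lies in sequence with 74.1% unique words. Against all 89717 shared sites their mean signals stood at percentiles 35.3, 13.7 and 54.2.

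The window from 1 to 60 kb upstream of Hbb-y, which takes in the locus control region, had 4 peaks in replicate 1, with a median signal of 21 and a highest of 28. These peaks lay 3.63, 7.92, 20 and 60 kb upstream, with signals of 9, 20, 22 and 28. In replicate 2 the window had 9 peaks, with a median of 3 and a highest of 7. A replicate 2 hotspot of 368 bp, 35.5 kb upstream, was at the −log10 q ceiling of 100. The highest −log10 q of a replicate 1 hotspot in the window was 3.53. The 1 shared site of this window is the one 59975 bp away, at its far edge. The span also holds 13 olfactory receptor genes, which flank the globin cluster on both sides, and 11 of them had no TSS peak in either replicate. Olfr243 had a TSS peak of signal 6 in replicate 1 alone and Olfr65 one of signal 3 in replicate 2 alone.

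The corresponding window of 1 to 60 kb upstream of Hba-x had 12 peaks in replicate 1, with a median signal of 60.5 and a highest of 132. In replicate 2 it had 64 peaks, with a median of 7.5 and a highest of 91. It held 9 shared sites. The strongest was the promoter of Nprl3, a component of the GATOR1 complex of nutrient sensing, with signals of 132 and 91 at 8.74 kb from Hba-x. The promoter of Mpg, a DNA repair glycosylase, followed with 112 and 62 at 49.9 kb. A weak intergenic site 8.18 kb upstream of Hba-x, with signals of 24 and 21, lay 514 bp from the Nprl3 TSS, and 3 sites lay in introns of Rhbdf1.

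Nprl3 held the remaining 3 shared sites of the window, with midpoints in its introns. Whether any of them is an enhancer of the alpha-type genes was not tested. The site 39.2 kb upstream of Hba-x had signals of 57 and 43, that at 37.8 kb had 72 and 35, and that at 29.1 kb had 24 and 5. The replicates differed more in weak peaks than at the sites 39.2 and 37.8 kb upstream. At 29.1 kb the replicate 2 peak was itself weak, with other weak peaks of that replicate close by. The whole Nprl3 gene takes in the Mpg promoter and the peaks of its own promoter. Over it replicate 1 had 7 peaks with a median signal of 57, all of 20 or more. Replicate 2 had 47 peaks with a median of 6, of which 42 had a signal of 14 or less.

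The alpha-globin span of 220.9 kb had 40 peaks in replicate 1, 127 in replicate 2 and 21 shared sites, or 95.1 per Mb, at percentile 79.6 of all gene spans. Of its 8 neighbouring genes, 7 had a TSS peak in both replicates, against 0 of 15 in the beta-globin span. The neighbours of highest TSS signal were Nprl3 and Snrnp25, a protein of the minor spliceosome, with 127 and 73. Only Il9r, a cytokine receptor gene, lacked a TSS peak in both replicates.

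**Figure D3:**
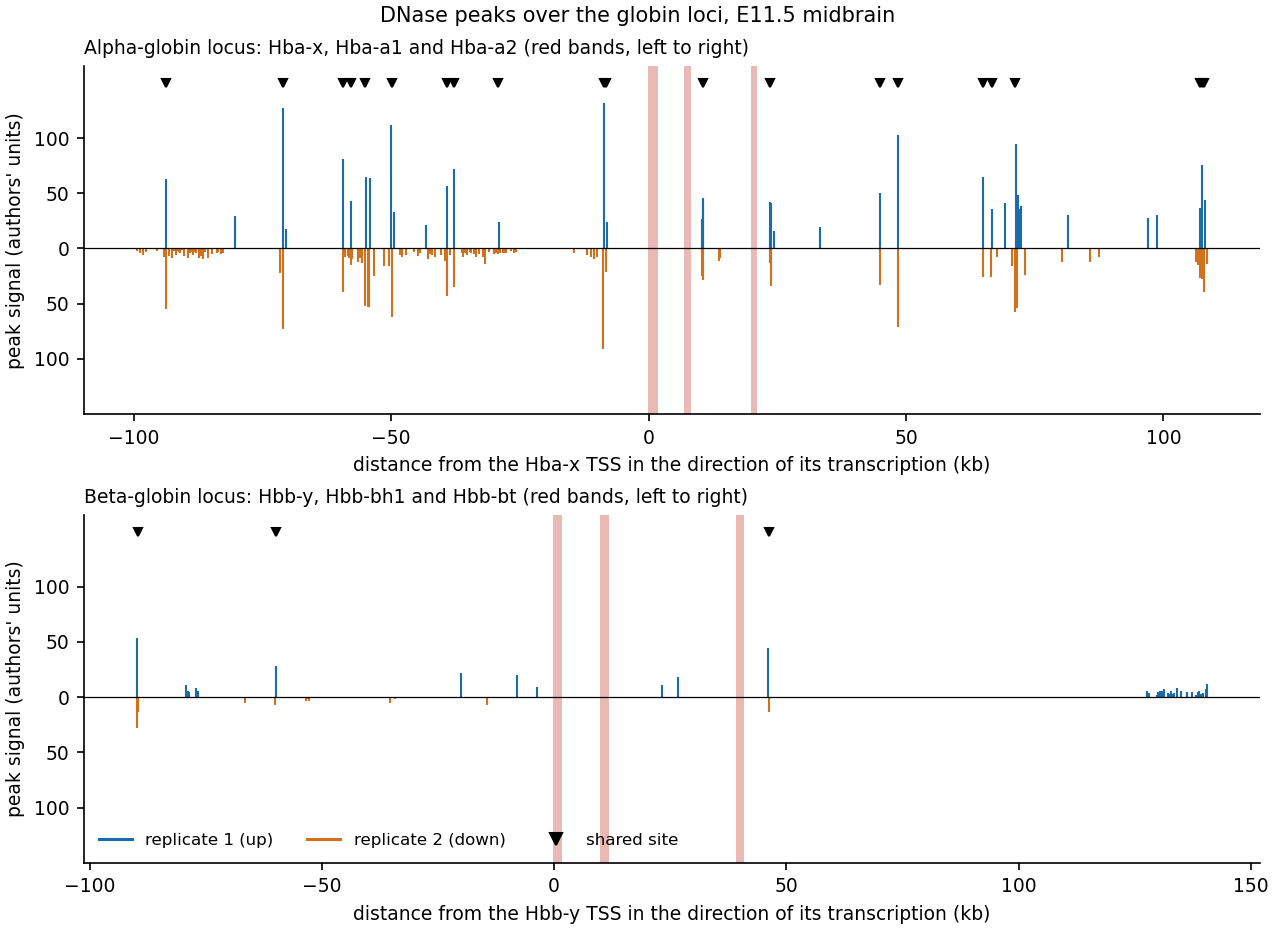
Peaks over the alpha-globin and beta-globin spans, by distance in kb from the Hba-x or the Hbb-y TSS in the direction of transcription. Lines up are peaks of replicate 1 and lines down peaks of replicate 2, with their height the authors' signal; triangles mark shared sites and red bands the member genes, slightly widened. The alpha-globin span holds 21 shared sites and the beta-globin span 3.

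Klf1 encodes the CACCC-binding activator of the adult beta-globin gene and of much of the red cell programme. It lies at chr8:84901928-84905291 on the plus strand and has 1 annotated TSS, without a peak within 500 bp. The gene was nevertheless accessible further in. Replicate 1 had peaks 843, 1283 and 1603 bp downstream of the TSS with signals of 46, 105 and 57, and replicate 2 had peaks 1243 and 1543 bp downstream with signals of 82 and 61. The 2 shared sites, 1263 and 1573 bp from the TSS, overlap the coding part of exon 2 of 3. The hotspot of replicate 2 was 1446 bp wide with a −log10 q at the ceiling, and its first base lay 488 bp from the TSS. It was the only hotspot of either replicate within 500 bp of a TSS of the 7 members that had no TSS peak.

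The stronger of these exon sites is printed because it sits inside a member gene that has no promoter peak. Capitals mark CCNCNCCC, the letters of a KLF-type site, and the CTCF core, on either strand. In its central 150 bp it held 1 match to CCNCNCCC and 2 to the CTCF core.
Klf1 exon 2 site, chr8:84903096-84903285, plus strand: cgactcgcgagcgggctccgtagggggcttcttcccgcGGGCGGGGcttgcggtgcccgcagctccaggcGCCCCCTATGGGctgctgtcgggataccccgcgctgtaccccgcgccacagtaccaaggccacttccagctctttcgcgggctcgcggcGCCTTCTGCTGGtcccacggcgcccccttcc

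Around Klf1 the chromatin was densely accessible. The span of 203.4 kb had 75 peaks in replicate 1, 123 in replicate 2 and 51 shared sites, or 251 per Mb, at percentile 99.7 of all gene spans. Of 15 neighbouring genes 14 had a TSS peak in both replicates, led by Calr, the calcium-binding chaperone calreticulin, with 140 and 92, and Hook2, a microtubule adaptor, with 129 and 80. The neighbours included Prdx2, an antioxidant enzyme abundant in red cells, with 96 and 71. Of these neighbours, Calr alone exceeded the highest signals within Klf1, 105 and 82, in both replicates. Hook2 did so in replicate 1 but not in replicate 2.

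Nfe2 encodes the p45 subunit of NF-E2, which pairs with small MAF proteins and is known for its need in platelet formation and for binding the beta-globin locus control region. It lies at chr15:103248212-103258403 on the minus strand with 5 annotated TSSs. Only the TSS at position 103255439 had a peak within 500 bp, with a signal of 48 in replicate 1 and 28 in replicate 2. These peaks did not overlap each other. Their signals stood at percentiles 12 and 10.1 among genes with a TSS peak. The hotspots there were 207 bp wide with a −log10 q of 2.69 in replicate 1 and 649 bp wide with 4.96 in replicate 2, both far under the ceiling of 100.

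The other 4 TSSs of Nfe2 lie together, and the peaks nearest to them, with signals of 45 and 40, formed a shared intron site whose midpoint was 1.04 kb downstream of the nearest of them. This site is printed because it was the stronger of the 2 shared sites in the gene. It held no exact match to any of the 4 motifs in its central 150 bp, so no letter is in capitals, and near matches were not searched. The other, with signals of 30 and 31, overlapped a coding exon.
Nfe2 intron site, chr15:103250316-103250525, plus strand: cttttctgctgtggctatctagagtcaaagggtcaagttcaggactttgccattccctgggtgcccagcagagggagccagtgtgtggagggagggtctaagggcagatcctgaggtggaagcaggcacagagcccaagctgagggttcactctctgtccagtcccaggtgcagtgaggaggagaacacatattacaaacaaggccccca

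The Nfe2 span of 210.2 kb had 67 peaks in replicate 1, 137 in replicate 2 and 45 shared sites, or 214 per Mb, at percentile 99 of all gene spans. Its strongest shared site was intergenic, 49.8 kb upstream of Nfe2, with signals of 134 and 90, and lay 5341 bp from the TSS of Gpr84. Of 6 neighbours, 5 had a TSS peak in both replicates, led by Cbx5, a heterochromatin protein, with 139 and 80, and Hnrnpa1, an RNA-binding protein, with 134 and 80. Gpr84, a receptor gene of myeloid cells, had none.

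Ank1 encodes ankyrin-1, which ties the spectrin skeleton to membrane proteins of the red cell and is also made in brain and muscle from alternative promoters. It lies at chr8:22974844-23150497 on the plus strand, and its 11 TSSs fall into 4 groups. The most upstream group of 3 TSSs had 3 peaks in each replicate, with highest signals of 61 and 53, and a hotspot of 1981 bp in replicate 1 and of 2744 bp in replicate 2. The group of 3 TSSs 83.4 kb downstream also had 3 peaks in each replicate, with highest signals of 49 and 39. Both groups reached the hotspot ceiling of 100 in both replicates. The groups 60.3 and 164 kb downstream had TSS peaks in replicate 2 alone, with highest signals of 21 and 15.

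Within the 175.7 kb of Ank1 there were 12 shared sites, with 18 peaks in replicate 1 and 136 in replicate 2. The highest signals in the gene were not at a TSS. A site overlapping the last exons had signals of 88 and 55, and an intron site 6.99 kb upstream of the nearest TSS had 74 and 59. The intron site is printed, with a CCNCNCCC match in capitals. It held no exact match to the CTCF core or the other motifs, and near matches were not searched. Over the 375.7 kb of the span the shared sites numbered 24, or 63.9 per Mb, at percentile 60.1 of gene spans, with Gins4, a replication factor, at 134 and 97 and Gpat4, an enzyme of glycerolipid synthesis, at 131 and 99 as the neighbours of highest TSS signal.
Ank1 intron site, chr8:23028036-23028185, plus strand: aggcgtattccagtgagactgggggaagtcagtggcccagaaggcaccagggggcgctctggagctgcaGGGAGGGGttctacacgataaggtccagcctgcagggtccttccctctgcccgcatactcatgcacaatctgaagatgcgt

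Sptb encodes beta-spectrin of the red cell, which also occurs in brain and muscle. It lies at chr12:76580488-76710547 on the minus strand with 2 TSSs. The highest TSS signal was 51 in replicate 1 and 60 in replicate 2, at percentiles 13.2 and 36.9 of genes with a TSS peak, and the hotspot over the start was 1094 bp wide in replicate 1 and 1615 bp wide in replicate 2, both at the ceiling. Of the 3 members with a TSS peak, Sptb alone had the higher signal in replicate 2, although the median TSS signal of all genes was 112 in replicate 1 and 68 in replicate 2. The gene body of 130.1 kb held 8 shared sites, the strongest an intron site 118 kb downstream of the TSS with signals of 74 and 56. The span had 23 shared sites, or 69.7 per Mb, at percentile 64.7. Its leading neighbours were Fntb, a farnesyltransferase subunit, with 129 and 84, and Churc1, a zinc-binding protein, with 114 and 63.

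**Figure D4:**
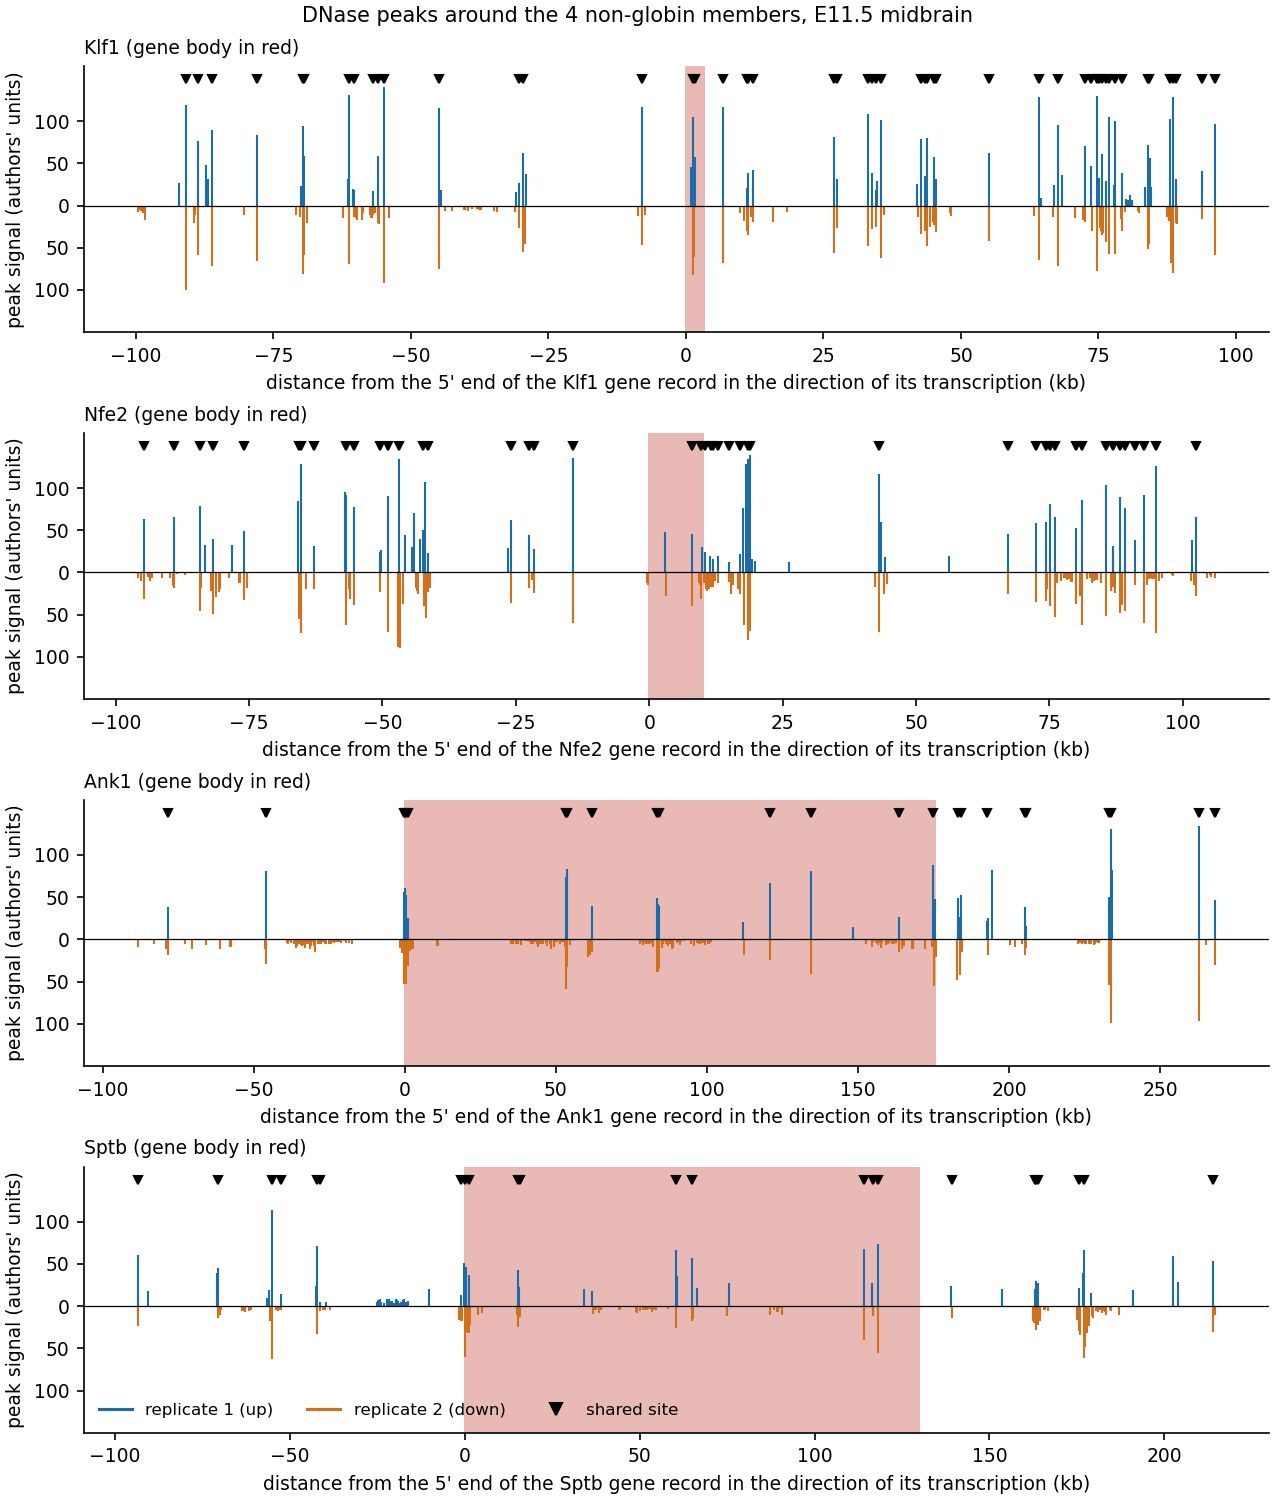
Peaks over the spans of Klf1, Nfe2, Ank1 and Sptb, by distance in kb from the 5′ end of the gene in the direction of its transcription. Lines up are replicate 1 and lines down replicate 2, with the authors' signal as height; triangles mark shared sites and red the gene body. Klf1 and Nfe2 lie among dense shared sites (51 and 45), and within Ank1 there were 136 peaks of replicate 2 and 18 of replicate 1.

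The 7 members without a TSS peak were all among genes of low CpG content. The ratio of observed to expected CpG within 500 bp of the 5′ end was 0.0653 for Hba-x, 0.0679 for Hbb-y, 0.0783 for Klf1 and 0.108 for Hbb-bh1, all in the lowest decile of genes, of which 6.05% had a TSS peak in both replicates. Hba-a1, at 0.133, and Hbb-bt, at 0.134, were in decile 2, of which 12.6% did, and Hba-a2, at 0.231, was in decile 3, of which 24.4% did. Nfe2 was in decile 3 as well, at 0.268, and by this measure was the only member with a TSS peak below decile 6. Its window lies around the 5′ end of the gene record, position 103258403. The TSS with the peak is at position 103255439, so the decile is not that of the accessible start. Sptb, at 0.654, was in decile 6 and Ank1, at 0.992, in decile 10, of which 93.5% and 98.8% of genes had a TSS peak in both replicates. The theta-globin genes, at 0.525 for Hbq1b and 0.446 for Hbq1a, were in decile 5, of which 81.3% did. What part CpG content has in the members' values was not tested.

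**Figure D5:**
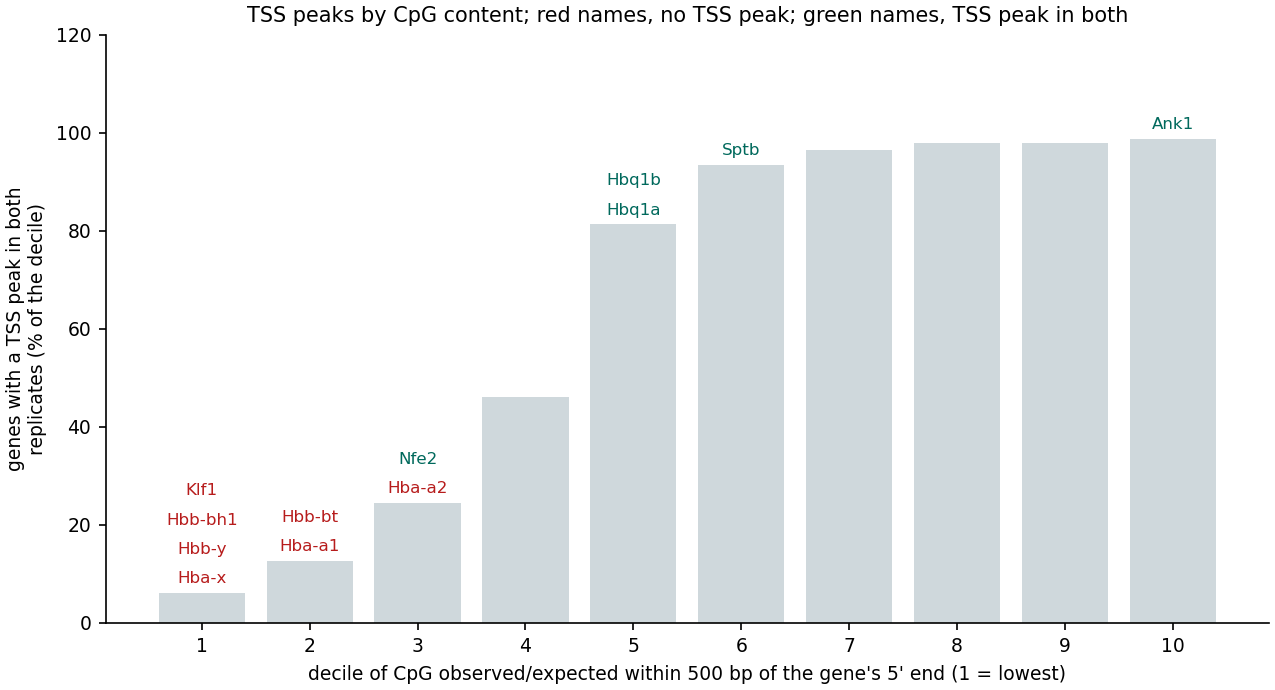
Share of protein-coding genes with a TSS peak in both replicates (grey bars, percent) by decile of the ratio of observed to expected CpG around the gene's 5′ end, with the members and the theta-globin genes named above their decile. Names in red had no TSS peak and names in green one in both replicates. Red names stand in deciles 1 to 3, where 6.05% to 24.4% of genes had a TSS peak, and green names in deciles 3, 5, 6 and 10. The decile of Nfe2 is that of the 5′ end of its gene record and not of its TSS with a peak.

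Taken over the 6 spans, 167 sites were shared, or 105.6 per Mb, against 34.1 per Mb over chromosomes 1 to 19 and X. Of the sites in the spans 21.0% were shared, against 15.4% over those chromosomes. By their midpoint 41 shared sites were promoters (within 500 bp of a protein-coding TSS), 24 exonic, 57 intronic and 45 intergenic, and 86 were farther than 2.5 kb from any such TSS. Klf1 and Nfe2 held 51 and 45 of them, and the beta-globin locus 3. The density is that of the neighbourhoods and not of the member genes, whose 10 gene bodies held 24 shared sites, 12 of them in Ank1 and none in a globin gene.

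Motif matches at the shared sites are a description of letters and not of binding. Only exact matches were searched, so other forms of these motifs were not counted. AGATAA was found in the central 150 bp of 6 of 167 sites (3.59%), against 4.66% of all shared sites, and TGAGTCA in 1 site (0.599%), against 2.36%. The CTCF core was found in 40 sites (24.0%), against 15.7%, and CCNCNCCC in 58 sites (34.7%), against 27.5%. Among the 86 sites farther than 2.5 kb from a TSS the shares were 5.81% for AGATAA, against 5.71% of all such shared sites, 1.16% for TGAGTCA, against 2.72%, 29.1% for the CTCF core, against 18.5%, and 24.4% for CCNCNCCC, against 19.5%. Of the 6 sites with AGATAA, 2 were in the beta-globin span, where 2 of the 3 sites also held the CTCF core. RefSeq promoters were matched for 7 of the 10 members, all but Hbb-bh1, Nfe2 and Ank1. The RefSeq start lies inside the GENCODE gene by 200 bp in Hba-x, 161 bp in Hba-a1, 73 bp in Hbb-bt and 54 bp in Klf1, and by at most 9 bp in the others. In the 250 bases before the RefSeq start, CCAAT was found for Hba-a1, Hba-a2, Hbb-y, Hbb-bt and Klf1 (33.8% of all 32851 promoters held it), TATAAA for Hba-x and Hbb-bt (12.4%), CATAAA for Hbb-y (10.8%) and AGATAA for none of the 7 (9.99%). The CCAAT of Hba-a1 and the TATAAA of Hba-x and Hbb-bt begin 73, 172 and 45 bp downstream of the GENCODE start used for the TSS peaks.

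Beyond the members, 58 further genes of red cell transcription factors, heme and iron, membrane and skeleton, and enzymes and receptors were read, of which 57 were found in the annotation. A TSS peak in both replicates was found for 43 of the 57 (75.4%), against 65.5% of all genes, and for 10 of them in neither, against 28.1% over all genes. The genes without a TSS peak were Gata1 among 14 transcription factors, Alas2 and Slc25a37 among 15 heme and iron genes, Epb42, Rhag, Rhd and Slc4a1 among 15 membrane genes, and Car1, Hemgn and Tspo2 among 13 enzymes, receptors and chaperones. They include the master regulator of the lineage (Gata1), its heme synthesis enzyme (Alas2), its mitochondrial iron importer (Slc25a37), its anion exchanger (Slc4a1) and its Rh proteins (Rhag and Rhd). By the mean percentile of their TSS signals, the top genes of these 4 lists were Mafg, a small MAF partner of NF-E2, with 132 and 101, Tfrc, the transferrin receptor, with 124 and 93, Slc2a1, the glucose transporter, with 134 and 87, and Blvrb, a biliverdin reductase, with 131 and 94.

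By family, 12 of 14 transcription factors, 13 of 15 heme and iron genes, 9 of 15 membrane genes and 9 of 13 enzymes, receptors and chaperones had a TSS peak in both replicates. Bach1, a heme-sensing repressor, had 136 and 87, and Zfpm1, the GATA1 cofactor FOG1, had 137 and 84. Urod, an enzyme of heme synthesis, had 130 and 74, and Fech, which inserts iron into heme, and Slc11a2, an iron transporter, each had 125 and 77. Epb41, protein 4.1 of the membrane skeleton, had 135 and 83, and Dmtn, the actin-bundling dematin, had 101 and 78. Xpo7, an exportin of maturing red cells, had 129 and 94, and Cat, catalase, had 135 and 72. These genes led their lists by mean percentile of TSS signal. Epor, the erythropoietin receptor, had 48 and 30, both at or under percentile 12 of genes with a TSS peak. Among the other globin genes Ngb (neuroglobin) had 26 and 24, Cygb (cytoglobin) 59 and 51, and Mb (myoglobin) none in either replicate.

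Marker lists of the cell types that dissected midbrain could hold give the setting. Over all protein-coding genes, 65.5% had a TSS peak in both replicates and 28.1% in neither. Both replicates had one for 7 of 8 midbrain genes, 6 of 6 neural progenitor genes and 3 of 7 red cell markers. The same held for 2 of 8 endothelial genes (Kdr with 92 and 59 and Egfl7 with 93 and 61). It held for 0 of 8 microglia and macrophage genes and 0 of 5 megakaryocyte genes. A further 2 endothelial genes and 2 microglia and macrophage genes had a TSS peak in 1 replicate alone. Of 6 genes of blood stem and progenitor cells 5 had one in both. Some of these genes, and some red cell markers, are also in the lists above, so these counts are not separate readings. Replicate 1 had 306572 deposited peaks and replicate 2 had 455245, with median signals of 18 and 8, and read depth is unknown. The replicates were sequenced on different instruments per the labels, so replicate and instrument cannot be told apart.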

How the data were processed

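DNase-seq peaks and hotspots of 2 replicates were used as deposited on mm10. Per the deposited file records, both kinds of list were made from each replicate's own alignments, with an aligner and caller not given in the sources used here. Each peak has a signal value deposited by the authors, a whole number without a stated normalization, and each hotspot a deposited −log10 q-value from 1.30 to a ceiling of 100. No reads or depths were used. Rows on chromosomes 1 to 19 and X were kept and repeated coordinates counted once. TSSs are those of GENCODE vM21 basic protein-coding transcripts. Overlap by at least 1 bp made a site shared; promoter sites had their midpoint within 500 bp of a TSS. Words of 32 bases were counted on the GRCm38.p6 genome, whose chromosome lengths match. Scripts (Python 3.11.15, pandas 2.3.3, numpy 2.4.6) were tested on simulated peaks. With 1 group no test was made. The members and gene lists were chosen with earlier results of these data known. All members, the strongest site and leading neighbours of each span, other globin genes, and the genes of each list with the highest or no TSS signal were named by rule. Windows, peak strength, hotspots, overlap, flanks and single replicates were varied. Some genes of these lists are counted but not reported by name here.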

Additional observations from a re-analysis of the deposited data

How the results depend on the processing

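The 3 members with a TSS peak in both replicates, Nfe2, Ank1 and Sptb, were the same under 7 of 8 alternatives (windows of 150 and 1000 bp, the stronger 50% of peaks, each replicate alone, hotspots, and all annotated transcripts); with the 5′ end of the gene record alone the count was 2, without Nfe2. The 43 genes of the wider lists became 36 to 45. Counts of sites moved more. With 1 replicate left out, all sites of the remaining one count, and the 167 sites of the spans became 308 to 657 and the density of 105.6 per Mb became 194.8 to 415.6. Flanks of 50 kb gave 90 sites, and sites more than 2.5 kb from a TSS gave 54.4 per Mb. The stronger 50% of peaks gave 158 sites and an overlap of 50% of the shorter peak gave 130. The 10 shared sites upstream of Hba-x and Hbb-y became 9 shared hotspots. The signal at the nearest peak in place of the highest gave a mean of 49.5 for Ank1, against 57. No paired analysis was possible because the series has 1 group. Depth is unknown, so a missing peak is not shown to be an absence of cutting.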

Other observations

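Long runs of weak peaks of 1 replicate, a pattern noticed after the data were seen, lay in or across the edge of 4 of the 6 spans. A run was taken as at least 10 consecutive sites of the same replicate with gaps of at most 2 kb. The spans held 12 runs of replicate 2, with median signals of 3.5 to 7 and no signal above 15, and 2 runs of replicate 1, with median signals of 5 to 5.5 and no signal above 12. Within the spans they held 44.1% of the sites found in replicate 2 alone, against 37.2% over chromosomes 1 to 19 and X, and 34.1% of those found in replicate 1 alone, against 27.3%. Of the runs of replicate 2, 7 lay in the Ank1 span, the longest with 44 sites before the Ank1 start, and 3 in or across the edge of the alpha-globin span. The runs of replicate 1 lay across the edge of the beta-globin span, with 32 sites in all, and upstream of Sptb. No hotspot of the other replicate overlapped any of the 14 runs. This is largely fixed by the definition, since a run holds no peak of the other replicate.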
